A study of Mus musculus with 24 samples.

Results

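The depot by siRNA interaction at day 0 (d0) is the difference between the siH19 effect in precursor cells from brown adipose tissue (BAT) and the siH19 effect in precursor cells from visceral white adipose tissue (vWAT). It rests on 12 libraries of the 24 in the series, all those labelled d0, with 3 libraries in each of 4 groups. Of the 49452 genes in the table, 13708 reached an FPKM of at least 1 in 3 or more of the 12 libraries and were tested. FPKM counts the fragments of a gene per kilobase of transcript, scaled to the size of the library. An interaction above 0 means that the siH19 minus siCtrl difference, on log2(FPKM + 1), was larger in BAT cells than in vWAT cells.

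The groups were BAT siCtrl, BAT siH19, vWAT siCtrl and vWAT siH19. All cells were stromal vascular fraction (SVF) cells of C57BL/6 mice, which are what remains of fat once floating adipocytes are removed, grown to near confluence and nucleofected with an siRNA. The labels call vWAT epididymal fat and give the control as a non-targeting siRNA, with the letters siKO in its library names. According to the study's methods the mice were young males and BAT of several animals was pooled where cells were short, and d0 precedes the differentiation cocktail. No label states that the 3 libraries of a group came from separate animals or cultures, so the p-values measure the spread between these libraries, which may be technical. The library names of BAT and vWAT cells belong to separate numbered series, so depot and any difference between those series cannot be told apart.

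*H19* is a long non-coding RNA made from the maternal chromosome beside *Igf2*, which is expressed from the paternal chromosome. It is abundant in embryonic tissue and falls in most organs after birth. Brown and white fat precursors arise from different embryonic mesenchyme, and both need the transcription factors PPARG and C/EBPA to become adipocytes.

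The study lists 3 siRNAs against *H19*, and the labels of the knockdown libraries carry the number 3 after siH19. Which duplex was used in these libraries is not settled by the sources used here. The guide strands are shown with the seed, bases 2 to 8 from the 5′ end, in capitals, because the seed is the part of an siRNA that can also pair with other mRNAs.
siH19: uCUUGAUUcagaacgagacgg
siH19#2: uACGGAGAgacucaaagcuat
siH19#3: uGGUGUUCaagaaggcuggat
Each target of 19 bases stood once in the longest *H19* transcript of GENCODE M21, which has 2286 bases and 5 exons on the minus strand of chromosome 7 (GRCm38). The siH19 target lay at bases 1630 to 1648 in exon 4 (chr7:142576255-142576273) and the siH19#2 target at bases 2026 to 2044 in exon 5 (chr7:142575771-142575789). The siH19#3 target, bases 1439 to 1457, crossed the junction of exons 2 and 3.

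Sums of FPKM were 710794 to 772251 per library, and 12508 to 13099 genes reached an FPKM of 1. Fragment totals are unknown. Relative depth, read from the steps between low values, was 0.869 to 0.983 in BAT and 1.03 to 1.15 in vWAT libraries. This measure leaves out large steps and has an upper limit, which a vWAT library reached, so it cannot show large differences in depth. In the libraries vWAT siCtrl 2 and 3, genes of granulocytes stood apart. *S100a8*, a protein of neutrophils, was at 184 and 77.6 FPKM there and at 0.933 to 3.55 in the other 10 libraries. *Mpo* was at 25.6 in vWAT siCtrl 2 and at 0.623 to 3.07 elsewhere. Without both libraries 4 interactions were called, 3 of them among the 140 described below, and 24 genes passed in vWAT, 19 of them among the 278 described below. Of 68 interactions given by gene name, only that of *Serpine2* was then called, and of 57 named genes called in vWAT 5 were, namely *H19*, *Serpine2*, *Pparg*, *Ccn2* and *Ccn5*.

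*H19* (chr7:142575529-142578143) was lower after siH19 in both depots, and it fell further in BAT cells. In BAT siCtrl it was at 108, 160 and 123 FPKM, and in BAT siH19 at 2.82, 5.20 and 5.05. In vWAT siCtrl it was at 12.3, 11.3 and 11.6 FPKM, and in vWAT siH19 at 1.23, 0.630 and 1.76. Neither depot's groups overlapped, and the BAT siH19 libraries stayed above the vWAT siH19 libraries. *H19* fell by 4.63 (SE 0.23) in BAT and by 2.56 (SE 0.23) in vWAT on log2(FPKM + 1), with adjusted p of 1.18e-05 and 0.000704 (limma, Benjamini-Hochberg over all genes tested). The interaction was −2.07 (SE 0.32, adjusted p = 0.0208). Since vWAT cells began with less *H19*, the added 1 takes up more of their remaining signal, and with a pseudocount of 0.1 the interaction was −1.63 and did not pass (adjusted p = 0.135). *Igf2* was at 37.4 to 46.4 FPKM in BAT siCtrl and 36.5 to 51.3 in BAT siH19, and at 3.90 to 5.42 and 2.1 to 4.17 in the vWAT groups. These groups overlapped within each depot, and the interaction was 0.43 (SE 0.28, adjusted p = 0.585).

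Most called changes at d0 were decreases, and 17 of the 84 decreases shared by the depots were on a list of common adipogenic genes. A simple effect was called at an adjusted p under 0.05 (limma) with a change of at least 1.3-fold, and an interaction at an adjusted p under 0.05. In BAT cells 122 genes rose (0.89% of genes tested) and 284 fell (2.07%), 2.96% in all. In vWAT cells 74 rose (0.54%) and 204 fell (1.49%), 2.03% in all. For the mean of both depots 59 rose (0.43%) and 235 fell (1.71%), 2.14% in all. With trimmed-mean scaling 120 rose and 160 fell in vWAT, and 85 and 194 for the mean. In both depots 84 genes fell (0.613%) and 5 rose (0.0365%), 0.649% of the genes tested in all, and 1 moved in opposite ways (0.0073%). The 89 genes that moved the same way were 21.9% of those called in BAT and 32% of those called in vWAT. The interaction was called for 140 genes (1.02%), 62 above 0 (0.452%) and 78 below 0 (0.569%), while 1823 had an unadjusted p under 0.05. The depots' differences share no library.

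**Figure D1:**
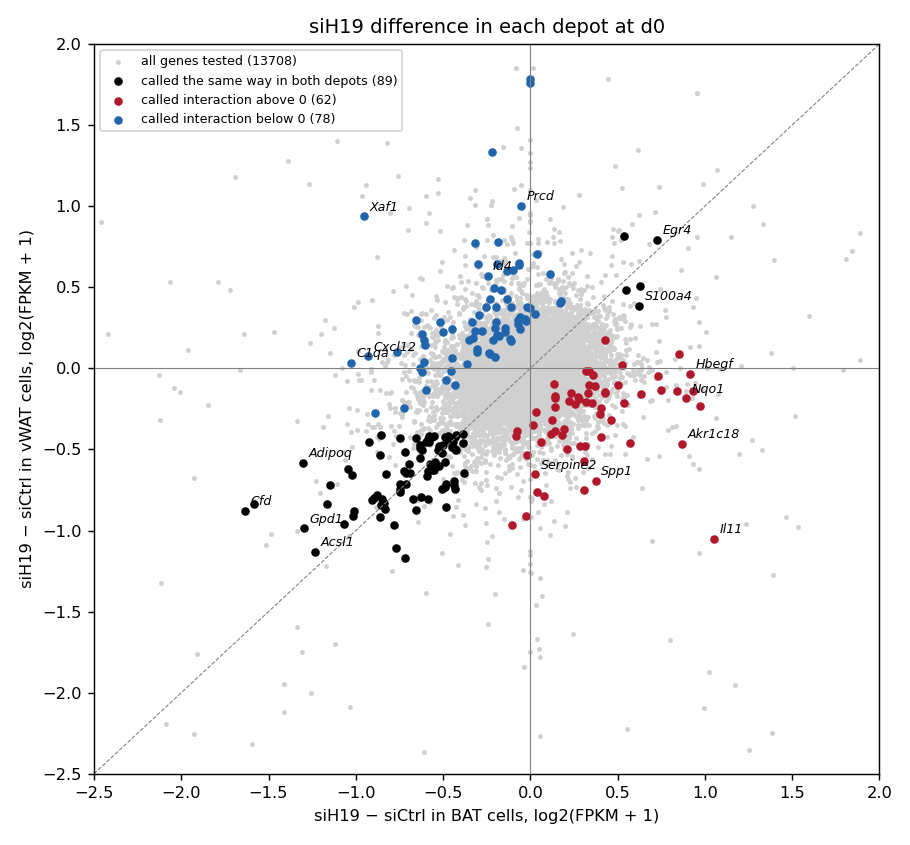
siH19 minus siCtrl in BAT cells (horizontal axis) and in vWAT cells (vertical axis) at d0 for the 13708 genes tested, both on log2(FPKM + 1); the dashed line marks equal differences, and 69 genes, *H19* among them, lie outside the axes, which run from -2.5 to 2. The 89 genes called the same way (black) lie along the dashed line, nearly all at lower left, and the 140 called interactions (red and blue) lie to either side of it.

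The 140 interaction genes were seldom genes with a strong change in both depots. For 119 of them the fitted differences had opposite signs, which choosing genes by the difference between depots favours. Of all genes tested 5643 had opposite signs. Only *H19* and *Il11* of the 140 were called in both depots. A further 42 were called in BAT alone, 43 in vWAT alone and 53 in neither. Of the 62 above 0, 21 rose in BAT and 20 fell in vWAT. Of the 78 below 0, 23 fell in BAT and 24 rose in vWAT. There were 126 protein-coding genes among the 140, and the values furthest from 0 in either direction belonged to short RNAs listed at 0 in several libraries, which are not described further.

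*Acsl1*, which activates long-chain fatty acids, was at 55.1, 45.5 and 55.7 FPKM in BAT siCtrl and at 21.5, 24.5 and 18.8 in BAT siH19. In vWAT it was at 147, 168 and 163 with siCtrl and at 77.9, 78.2 and 61.5 with siH19. All siH19 libraries lay below all siCtrl libraries of their depot. *Acsl1* fell by 1.23 (SE 0.12, adjusted p = 0.000852) in BAT and by 1.13 (SE 0.12, adjusted p = 0.000939) in vWAT, and its interaction was −0.10 (SE 0.17, adjusted p = 0.866). *Gpd1*, which makes the glycerol backbone of triglyceride, fell by 1.3 and 0.99, and *Lipe*, hormone-sensitive lipase, by 1.07 and 0.96. *Pnpla2*, the lipase of the first step of lipolysis, fell by 0.86 in BAT and 0.92 in vWAT. The same libraries had *Cfd*, the complement factor adipsin secreted by adipocytes, at 207 to 244 FPKM in BAT siCtrl and 50.2 to 89.2 in BAT siH19, and at 248 to 280 and 126 to 153 in vWAT. *Cfd* fell by 1.63 in BAT and 0.88 in vWAT, and its interaction of −0.76 (SE 0.25) did not pass (adjusted p = 0.216). *Rasd1*, a small G protein induced by glucocorticoids, fell by 1.01 and 0.91, and *Wfdc21* by 1.01 and 0.88. None of these genes other than *H19* had a called interaction, nor did any other of the 84, whose median difference was −0.63 in BAT and −0.64 in vWAT.

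The 5 genes that rose in both depots were *Egr4*, *Klk8*, *Cdsn*, *S100a4* and *A730020M07Rik*. *S100a4*, a calcium-binding protein of fibroblasts, was at 774 to 904 FPKM in BAT siCtrl and 1186 to 1361 in BAT siH19, and at 647 to 697 and 825 to 947 in vWAT. It rose by 0.62 in BAT and 0.39 in vWAT, with no overlap of the groups in either depot. *Egr4*, an immediate early transcription factor, rose by 0.72 and 0.79, *Klk8*, a serine protease, by 0.63 and 0.51, and *Cdsn*, an adhesion protein of skin, by 0.55 and 0.48. Their interactions were −0.07 to 0.24.

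Of the 41 tested genes on a list of common adipogenic genes, 20 fell in BAT and 23 in vWAT, against 2.07% and 1.49% of all genes tested. For 17 of the 41 the fall was called in both depots, and their list had medians of −0.46 and −0.49 where those of all genes were −0.03 and −0.03. *Pparg*, the master regulator of adipogenesis, was at 42.5 to 46.2 FPKM in BAT siCtrl and 29.2 to 29.6 in BAT siH19, and at 48.6 to 53.6 and 36.5 to 38.1 in vWAT. It fell by 0.60 and 0.46. *Cebpa* fell by 0.85 and 0.41, with an interaction of −0.44 (SE 0.10, adjusted p = 0.0627). *Fabp4*, the fatty acid carrier of adipocytes, fell by 0.89 and 0.80, and *Adipoq*, the hormone adiponectin, by 1.3 and 0.58 with an interaction of −0.72 (SE 0.20, adjusted p = 0.136). *Cebpd* was the list's only called interaction. This early C/EBP factor was at 11.5 to 12.4 FPKM in BAT siCtrl and 9.995 to 11.3 in BAT siH19, and at 7.32 to 7.89 in vWAT siCtrl and 10.4 to 11.7 in vWAT siH19. It rose by 0.48 (SE 0.06, adjusted p = 0.00299) in vWAT, was −0.17 in BAT, and had an interaction of −0.65 (SE 0.09, adjusted p = 0.0126). Without vWAT siCtrl 2 and 3 the number of list members that fell in vWAT was 2, in a fit where 24 genes in all passed in vWAT. That fit leaves 1 vWAT siCtrl library, and the list's median in vWAT was −0.48 there. In it 36 of the 41 genes were below 0 in vWAT, as with all libraries. Fewer cells that have begun to differentiate and less RNA of these genes per cell cannot be told apart in bulk samples.

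Genes of finished brown adipocytes were at the bottom of the scale in BAT as in vWAT cells at d0. *Ucp1*, the uncoupling protein of brown fat, was listed at 0 to 0.0674 FPKM, *Cidea* at 0 to 0.294 and *Elovl3* at 0 to 0.374, so the BAT label is not marked by them before differentiation. Precursor genes were high in all groups: *Pdgfra* was at 44.2 to 51.9 FPKM in BAT libraries and 109 to 119 in vWAT libraries, with an interaction of −0.07 (adjusted p = 0.798). *Dlk1*, a brake on adipogenesis, had an interaction of 0.25 (adjusted p = 0.537).

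Genes with the 7-base match to a guide seed in the 3′ UTR were about as common among the 84 shared decreases as among all genes. A match to siH19#3 (GAACACC) was present in 7 of the 83 shared genes with an annotated 3′ UTR, or 8.43%, and in 8.17% of the 12172 tested genes that have one. For siH19 (AATCAAG) the shares were 9.64% and 10.4%, and for siH19#2 (TCTCCGT) 2.41% and 4.29%. The median 3′ UTR was 920 bases in the shared genes and 1350 in all. These are counts of letters in the longest annotated 3′ UTR of each gene and say nothing of pairing in the cells.

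The opposite effect that was called in both depots was that of *Il11*, a cytokine of the interleukin-6 family (chr7:4772373-4782857). It was at 14.1, 13.9 and 13.6 FPKM in BAT siCtrl and at 34.3, 29.5 and 26.2 in BAT siH19. In vWAT it was at 110, 150 and 144 with siCtrl and at 42.9, 71.7 and 85.0 with siH19. All siH19 libraries lay above siCtrl in BAT and below it in vWAT, and every vWAT library was above every BAT library. The differences were 1.05 (SE 0.21, adjusted p = 0.0184) and −1.05 (SE 0.21, adjusted p = 0.0219), and the interaction was 2.1 (SE 0.30, adjusted p = 0.0140). The interaction passed in 22 of 24 alternative fits. *Il11* was no longer called in both depots without any one of BAT siCtrl 1, 2 or 3, BAT siH19 1, vWAT siCtrl 2 or 3, or vWAT siH19 2. The same held with no filter on low FPKM (vWAT adjusted p = 0.0535) and with each depot's own 6 libraries (vWAT adjusted p = 0.104).

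**Figure D2:**
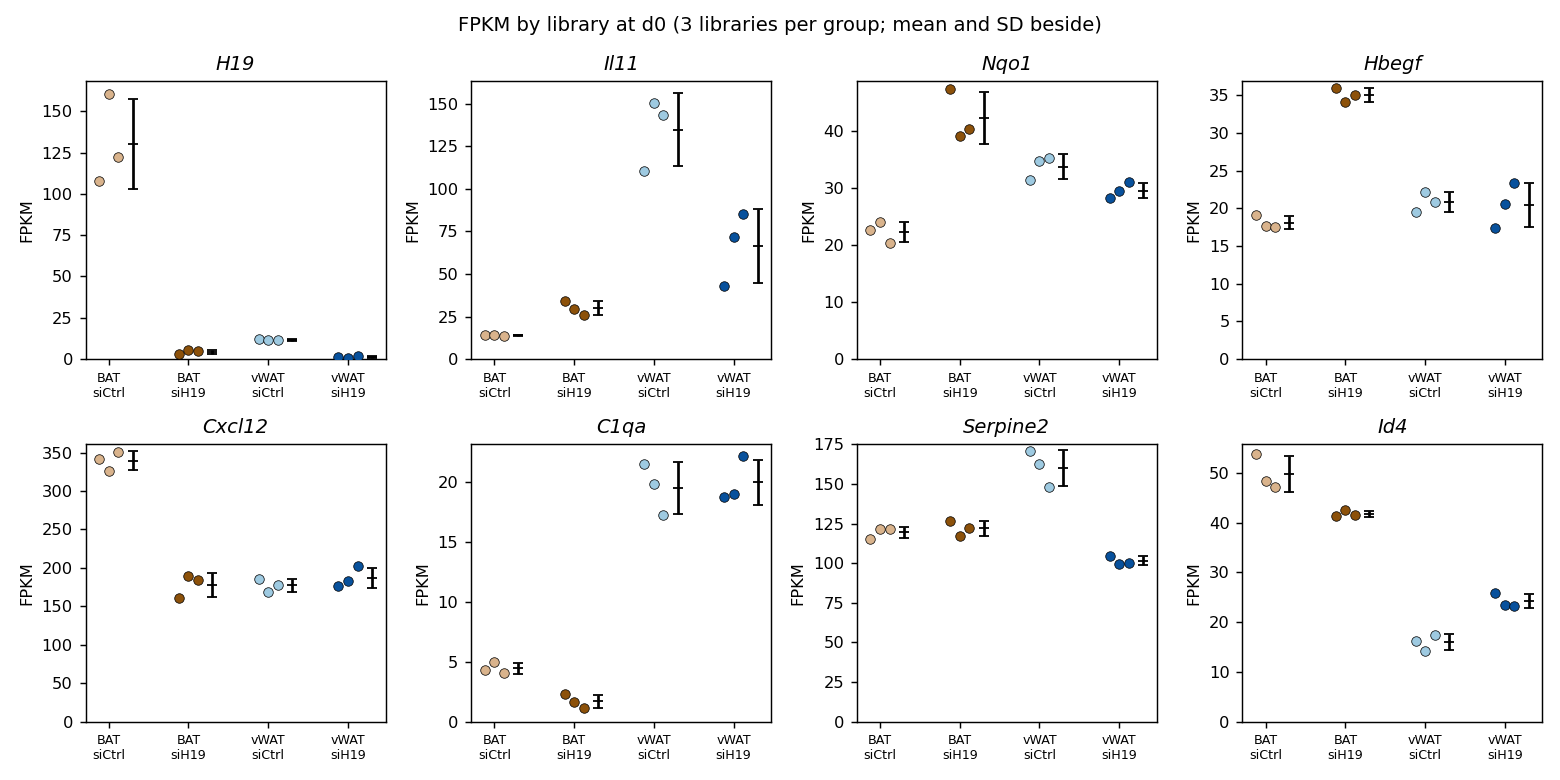
FPKM of 8 genes in the 12 libraries at d0, from an axis that starts at 0 in each panel; dots are libraries, and the bar beside them is the mean with its SD (n = 3). *H19* is low in both siH19 groups, *Il11* moves in opposite ways, *Nqo1*, *Hbegf*, *Cxcl12* and *C1qa* differ in BAT, and *Serpine2* and *Id4* differ mainly in vWAT.

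Several of the largest interactions above 0 belonged to secreted ligands. *Hbegf*, a ligand of the EGF receptor, was at 19.1, 17.7 and 17.5 FPKM in BAT siCtrl and 36.0, 34.1 and 35.0 in BAT siH19, and at 17.4 to 23.3 in all vWAT libraries. It rose by 0.91 (SE 0.09, adjusted p = 0.000852) in BAT, and the interaction was 0.95 (SE 0.13, adjusted p = 0.0116). *Ereg*, another ligand of that receptor, was at 23.0 to 24.9 FPKM in BAT siCtrl and 34.1 to 39.8 in BAT siH19, whereas in vWAT it was at 56.6 to 73.0 and 38.7 to 55.6. The groups did not overlap in either depot, in opposite directions, though barely in vWAT. *Ereg* rose by 0.57 (adjusted p = 0.0367) in BAT and was −0.46 (adjusted p = 0.0952) in vWAT, where it was not called. Its interaction was 1.03 (SE 0.19, adjusted p = 0.0375). *Spp1*, the matrix protein and cytokine osteopontin, was at 931, 831 and 773 FPKM in vWAT siCtrl and 576, 438 and 559 in vWAT siH19, and at 92.9 to 105 and 119 to 133 in the BAT groups. It fell by 0.69 (SE 0.10, adjusted p = 0.00485) in vWAT, and the interaction was 1.07 (SE 0.15, adjusted p = 0.0116). *Inhba*, the subunit of activin A, rose by 0.64 in BAT (interaction 0.79, SE 0.14, adjusted p = 0.0325), and so did *Tslp*, a cytokine of epithelium and stroma, by 0.85 (interaction 0.76, SE 0.15, adjusted p = 0.0413). *Nppc*, the precursor of C-type natriuretic peptide, was listed at 0 in 5 of 6 BAT libraries. It was at 1.82 to 2.18 FPKM in vWAT siCtrl and 0.443 to 0.743 in vWAT siH19, where it fell by 0.91.

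*Nqo1*, a quinone reductase and target of the oxidative stress factor NRF2 (chr8:107388225-107403206), was at 22.6, 24 and 20.4 FPKM in BAT siCtrl and at 47.5, 39.1 and 40.4 in BAT siH19. In vWAT it was at 31.4, 34.8 and 35.3 with siCtrl and at 28.3, 29.5 and 31.0 with siH19. The BAT groups lay far apart, and the vWAT groups lay barely apart, in the other direction. *Nqo1* rose by 0.89 (SE 0.08, adjusted p = 0.000751) in BAT, with an interaction of 1.08 (SE 0.12, adjusted p = 0.00690). Of 32 tested NRF2 target genes, 4 had a called interaction above 0 (0.452% of all genes tested) and 0 below it. The count above 0 was 0 without vWAT siCtrl 2 and 3, and without replicate 2 of both vWAT groups it was 1. The 4 were *Nqo1*, *Gsta4* (0.78), *Gsta3* (0.69) and *Pgd* (0.30), of which the glutathione transferases belong to a family of near-identical genes that may share reads. The list's median interaction was 0.21, and 30 of 32 values were above 0, beside 0.01 and 7022 of 13708 for all genes. Without vWAT siCtrl 2 and 3, which leaves 1 vWAT siCtrl library, the list's median interaction was 0.19. In BAT 6 rose, *Hmox1* (heme oxygenase) by 0.58 among them, and in vWAT *Cat*, catalase, fell by 0.40. The 9-letter antioxidant element TGACNNNGC, searched on both strands of the RefSeq promoters (GRCm38.p6, 250 bases before to 50 after the start), was present for 9 of 26 list members found there and for 17.0% of the 9971 tested genes found there. The matches of *Gsta3* and *Pgd* are shown with the element in capitals, as the only interaction genes of the list that hold it in this window.
*Gsta3*, chr1:21240454-21240482, plus strand: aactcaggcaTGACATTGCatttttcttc
*Pgd*, chr4:149166061-149166089, minus strand: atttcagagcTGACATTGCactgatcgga

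Among the other large interactions above 0, *Akr1c18*, which inactivates progesterone, rose by 0.87 in BAT and was −0.47 in vWAT (adjusted p = 0.0673), with an interaction of 1.34 (SE 0.18, adjusted p = 0.0116). *Clcn5*, an endosomal chloride/proton exchanger, rose from 4.71 to 6.09 FPKM in BAT siCtrl to 10.3 to 12.8 in BAT siH19, and its interaction was 1.2 (SE 0.14, adjusted p = 0.0102). *Cthrc1*, a secreted protein of remodelling matrix, fell by 0.57 in vWAT and was 0.31 in BAT (interaction 0.88, adjusted p = 0.0116). *Sgca*, a sarcoglycan of muscle, and *Eva1a* rose in BAT by 0.93 and 0.75, and *Ica1* fell in vWAT by 0.75, with interactions of 1.07, 0.88 and 1.06. *Sgca* was listed at 0 in 2 vWAT libraries.

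**Figure D3:**
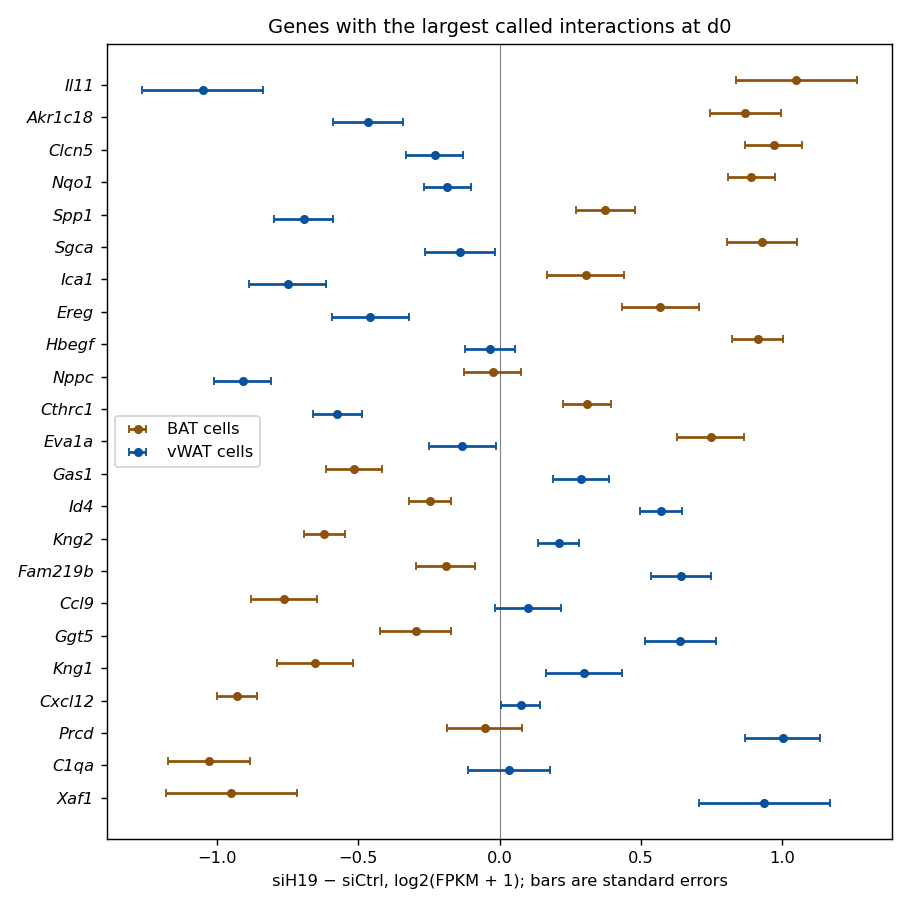
siH19 minus siCtrl on log2(FPKM + 1) in BAT cells (brown) and vWAT cells (blue) for the genes with the largest called interactions, *H19* left out; bars are standard errors from the fit. *Il11* has 1.05 in BAT and -1.05 in vWAT, and *Xaf1* has -0.95 and 0.94.

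*Serpine2* (protease nexin 1, an inhibitor of thrombin and plasminogen activators; chr1:79794197-79861180) was the only named interaction that passed in all 24 alternative fits. It was at 115 to 122 FPKM in BAT siCtrl and 117 to 127 in BAT siH19, where the groups overlapped. In vWAT it was at 171, 162 and 148 with siCtrl and at 105, 99.7 and 100.2 with siH19. It fell by 0.65 (SE 0.05, adjusted p = 0.000451) in vWAT, and the interaction was 0.68 (SE 0.08, adjusted p = 0.00690). Of 38 tested matrix proteases, inhibitors and crosslinkers, 3 had an interaction above 0 (0.452% of all genes tested) and 5 below it (0.569%). The former were *Serpine2*, *Serpinb2* (0.83) and *Plaur* (0.51), all of the plasminogen activator system, and the latter were *Adamts15* (−0.78), *Htra1* (−0.69), *Adamts2* (−0.30), *Loxl1* (−0.30) and *Prss23* (−0.24). Among 55 collagens and matrix proteins, *Thbs2* (0.53) and *Spon2* (0.35) were above 0 and *Fbln1* (−0.47) and *Efemp1* (−0.28) below, beside the same shares of all genes. On these 2 lists *Serpine2* was the only call left without vWAT siCtrl 2 and 3.

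The largest interactions below 0 other than *H19* included immune and signalling genes. *Cxcl12*, the chemokine that retains CXCR4+ cells in stroma (chr6:117168535-117181367), was at 342, 326 and 350 FPKM in BAT siCtrl and at 161, 190 and 184 in BAT siH19, and at 169 to 202 in all vWAT libraries. It fell by 0.93 (SE 0.07, adjusted p = 0.000239) in BAT to the level of the vWAT cells, and the interaction was −1.0 (SE 0.10, adjusted p = 0.00433). *Ccl9*, another chemokine, fell by 0.76 in BAT (interaction −0.87, adjusted p = 0.0384). *Kng1* and *Kng2*, near-identical kininogen genes whose reads may be split between them, fell by 0.65 and 0.62 in BAT, with interactions of −0.95 and −0.83. *Gas1*, a membrane protein of growth arrest and hedgehog signalling, fell by 0.52 in BAT (interaction −0.80). *Prcd*, *Ggt5* (a transpeptidase acting on leukotrienes) and *Fam219b* rose in vWAT by 1.0, 0.64 and 0.64, with interactions of −1.05, −0.94 and −0.83.

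Complement and macrophage genes fell in BAT but were not called in vWAT other than *Cfd*. *C1qa*, a chain of complement C1q made by macrophages, was at 4.32, 5.00 and 4.04 FPKM in BAT siCtrl and at 2.31, 1.63 and 1.18 in BAT siH19, and at 17.3 to 21.6 and 18.8 to 22.2 in the vWAT groups. It fell by 1.03 (SE 0.14, adjusted p = 0.00358) in BAT, and the interaction was −1.06 (SE 0.20, adjusted p = 0.0397). Of 24 complement and acute phase genes 13 fell in BAT (2.07% of all genes tested) and 1 in vWAT (1.49%), and 3 had an interaction below 0 (0.569%): *C1qa*, *Hp* (haptoglobin, −0.61) and *Serping1* (the C1 inhibitor, −0.52). The list's median interaction was −0.52. Across the alternative fits that kept a filter on FPKM, 6 to 15 complement and acute phase genes fell in BAT. Their median in BAT was −0.46, and it was weakest, at −0.36, without BAT siH19 1. The list summed to 1213 FPKM in that library and to 1574 and 1478 in BAT siH19 2 and 3. Of 22 macrophage markers 6 fell in BAT and 0 in vWAT, and *C1qa*, *Tyrobp* (−0.74) and *Lyz2* (−0.64) had an interaction below 0. Without vWAT siCtrl 2 and 3 neither list had a called interaction, and 9 complement and 5 macrophage genes fell in BAT. The summed level of the macrophage markers was 205 to 258 FPKM in BAT siCtrl and 154 to 163 in BAT siH19, and 475 to 555 and 483 to 524 in vWAT. No marker was at 0 in all 3 libraries of a group. The part of macrophage content in these differences was not tested.

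Interferon-stimulated genes had mostly lower values with siH19 in BAT and mostly higher values in vWAT, with few calls. Of 52 tested, 50 had an interaction below 0, with a median of −0.78, beside 6686 of 13708 and 0.01 for all genes, yet only *Xaf1* was called. *Xaf1*, a pro-apoptotic interferon target, was at 9.24, 10.6 and 8.74 FPKM in BAT siCtrl and at 4.25, 4.98 and 4.12 in BAT siH19. In vWAT it was at 8.66, 14.3 and 8.77 with siCtrl and at 18.5, 30.5 and 15.6 with siH19. It fell by 0.95 in BAT (SE 0.23, adjusted p = 0.0408), was 0.94 in vWAT (SE 0.23, adjusted p = 0.0511), and its interaction was −1.89 (SE 0.33, adjusted p = 0.0321). The list median was −0.27 in BAT, where 51 of 52 differences were below 0 and 2 were called, and 0.47 in vWAT, where 49 were above 0 and 0 were called. These counts depended on the setting. Across the alternative fits that kept a filter on FPKM, up to 7 interactions below 0 and up to 10 rises in vWAT were called. With trimmed-mean scaling 3 rose in vWAT. Replicates of vWAT differed widely. The list's mean log2(FPKM + 1) was 2.91, 3.47 and 3.16 with siCtrl and 3.47, 4.03 and 3.45 with siH19. So vWAT siCtrl 2 reached the level of 2 siH19 libraries, though within each replicate number of vWAT the siH19 value was the higher. Replicate 2 was also the highest of its group in BAT, at 2.585 with siCtrl and 2.242 with siH19. Without replicate 2 of both vWAT groups the median interaction was −0.71 and 2 genes were called, and without vWAT siCtrl 2 and 3 it was −0.98 and 0 were called. Of 39 list members in the promoter table, 21 held the interferon-stimulated response element, searched on both strands as GAAA, any 2 bases and GAAA, as did 3.75% of the tested genes found there.

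**Figure D4:**
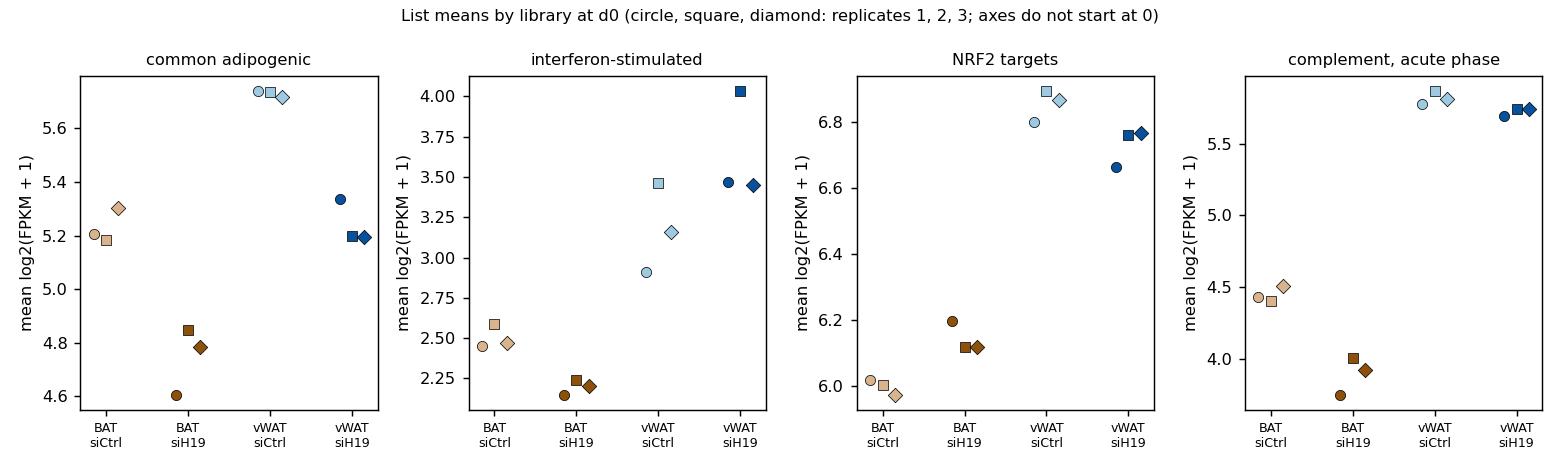
Mean log2(FPKM + 1) over the tested genes of 4 lists in each library at d0; the axes do not start at 0, and marker shapes are replicates 1, 2 and 3. Common adipogenic genes are lower with siH19 in both depots, interferon-stimulated genes are lower in BAT and mostly higher in vWAT, NRF2 targets are higher in BAT and lower in vWAT, and complement and acute phase genes are lower mainly in BAT.

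Some members of signalling pathways had called interactions below 0, beside 0.569% of all genes tested, while the medians of the TGF-beta and BMP list (−0.03), the Wnt list (−0.16) and the YAP and TEAD list (−0.03) lay near or below the 0.01 of all genes. None of these lists had a called interaction without vWAT siCtrl 2 and 3. *Id4*, an inhibitor of helix-loop-helix factors induced by BMP, was at 47.2 to 53.9 FPKM in BAT siCtrl and 41.3 to 42.5 in BAT siH19, and at 14.3 to 17.5 in vWAT siCtrl and 23.2 to 25.9 in vWAT siH19. It rose by 0.57 (SE 0.07, adjusted p = 0.00256) in vWAT, and the interaction was −0.82 (SE 0.11, adjusted p = 0.0116). The inhibitory *Smad6* (−0.70) and the BMP targets *Id2* (−0.39) and *Id3* (−0.27) were called in the same direction, so that 4 of 41 TGF-beta and BMP genes were below 0 and 1, *Inhba*, above. Of 33 Wnt pathway genes, 4 were called below 0 and 0 above: the receptor *Fzd5* (−0.62), the Wnt antagonists *Sfrp2* (−0.65) and *Sfrp1* (−0.51), and *Ccn5* (−0.71). Of 31 YAP and TEAD targets, 3 were below 0, namely *Ccn2* (−0.47), *Ccn1* (−0.37) and *Amotl2* (−0.31). *Ccn2* was at 683 to 771 FPKM in vWAT siCtrl and 1011 to 1174 in vWAT siH19, where it rose by 0.58, and at 2253 to 2362 and 2497 to 2513 in BAT. Among 29 contractile genes 3 rose in vWAT (0.54% of all genes tested), *Acta2* (smooth muscle actin) by 0.59. In BAT 1 fell, and 0 had a called interaction. Their differences were above 0 for 29 in vWAT and 25 in BAT, beside 5583 and 5865 of all 13708 genes. In the IGF pathway *Igfbp4*, a binding protein that holds IGF back, fell from 1154 to 1187 FPKM in BAT siCtrl to 812 to 920 in BAT siH19, with an interaction of −0.52 (SE 0.06, adjusted p = 0.0102).

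Growth and cell cycle control genes split. *Cdkn1a*, the cell cycle inhibitor p21, was at 249 to 260 FPKM in BAT siCtrl and 316 to 332 in BAT siH19, and at 229 to 244 and 212 to 236 in vWAT (interaction 0.44, SE 0.06, adjusted p = 0.0121). *Hmga2*, a chromatin protein and let-7 target, fell by 0.39 in vWAT (interaction 0.53), and *Fas*, a death receptor, had an interaction of −0.51. The feedback inhibitors *Spry4* (0.52) and *Spry1* (−0.45) went in opposite directions, and *Vegfd* (−0.31), a lymphatic growth factor, had 0.34 in vWAT, under the fold asked of a call. Of 34 tested glycolysis and hypoxia genes, 2 had a called interaction below 0, *Adm* (adrenomedullin, −0.70) and *Egln1* (−0.40). That list's median interaction was 0.025, with 19 of 34 values above 0. Of 35 tested genes on the precursor and stromal list, *Cd9* (0.57) and *Vcam1* (0.38) were called above 0 (0.452% of all genes tested). *Ccn5* (−0.71) was called below 0 (0.569%). Of 26 tested genes on the WAT-selective list, 1 was called below 0, *Agt* (angiotensinogen, −0.48), and the list's median interaction was −0.18. Of 50 cell cycle genes 0 were called in either depot, and 1 fell in the mean of both. Their differences were below 0 for 40 in BAT and 42 in vWAT, beside 7798 and 8104 of all 13708 genes. The medians were −0.13 and −0.12, beside −0.03 and −0.03 for all genes.

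No imprinted gene other than *H19* had a called interaction at d0. Of 23 tested paternally expressed genes 0 were called, with a median of −0.04, and of 28 maternally expressed genes, *H19* left out, 0 were called, with a median of 0.07. For the difference within BAT, 1 paternally expressed gene fell (2.07% of all genes tested) and 2 maternally expressed genes rose (0.89%). Within vWAT 0 of either list were called. *Nnat*, a proteolipid of the endoplasmic reticulum, fell by 0.74 in BAT from 26.4 to 30.9 FPKM in siCtrl to 15.1 to 17.6 in siH19, and its interaction of −0.78 (SE 0.26) did not pass (adjusted p = 0.219). *Mest* was at 17.8 to 20.3 FPKM in BAT siCtrl and 6.23 to 14.8 in BAT siH19 (−0.94, SE 0.25, adjusted p = 0.0587). The interactions of *Peg3* (−0.16), *Peg10* (0.09), *Plagl1* (0.78), *Cdkn1c* (−0.19), *Dcn* (−0.17) and *Igf2r* (0.21) had adjusted p of 0.375 to 0.875. *Mbd1*, a methyl-CpG reader, and *Ctcf*, the insulator protein of the *H19* locus, had interactions of 0.01 and −0.07. Of 61 oxidative phosphorylation genes and 27 *H19* partners and methyl readers, 0 were called. The oxidative phosphorylation genes had mostly small differences below 0 in both depots, 56 in BAT and 57 in vWAT. For all genes these numbers were 7798 and 8104 of 13708. Their medians were −0.10 in BAT and −0.13 in vWAT, beside −0.03 and −0.03 for all genes.

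**Figure D5:**
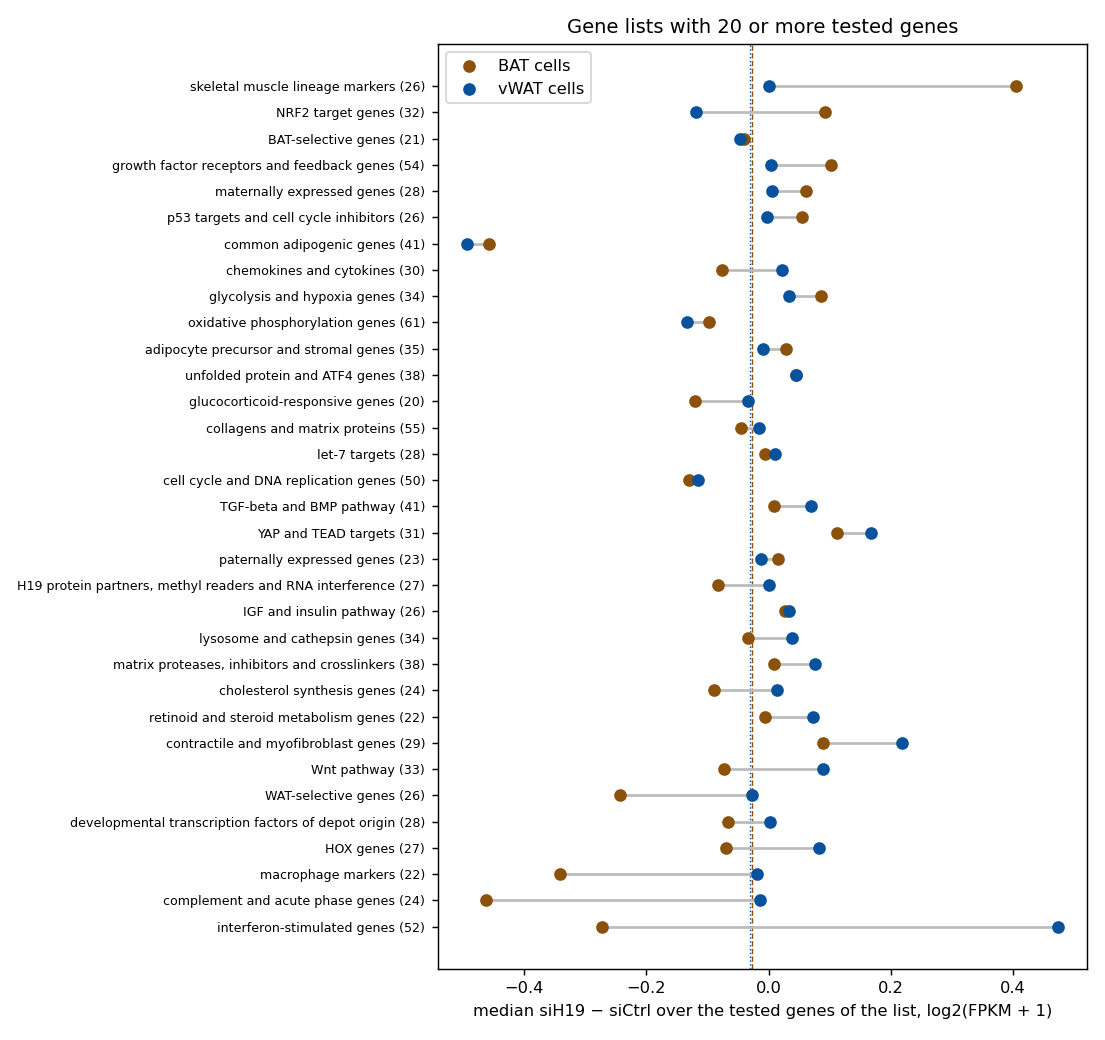
Median siH19 minus siCtrl on log2(FPKM + 1) in BAT (brown) and vWAT cells (blue) for each list with 20 or more tested genes (number in brackets), ordered by median interaction; the dashed and dotted lines are the medians of all genes. Common adipogenic genes are low in both depots at -0.46 and -0.49, and interferon-stimulated genes are furthest apart at -0.27 and 0.47.

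Markers of other cell types were counted beside these results. Skeletal muscle lineage markers summed to 686 to 1084 FPKM in BAT siCtrl and 868 to 1259 in BAT siH19, and to 49.7 to 68.2 in vWAT. Of 26 tested, 25 had an interaction above 0, beside 7022 of 13708 for all genes, and 0 were called. In BAT 26 differences were above 0, while the list's median in vWAT was 0. There 7 members were at 0 in all 3 siCtrl libraries and 12 in all 3 siH19 libraries, so the sign came mainly from BAT. *Myod1*, the myoblast factor, rose in BAT from 2.76 to 4.60 FPKM to 5.22 to 7.87. Mesothelial markers summed to 21.3 to 24.2 FPKM in BAT and 579 to 661 in vWAT, and endothelial markers to 32.8 to 46.6 in all. Their part in the interaction was not tested.

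At d3, after 3 days of differentiation, the same contrast in 12 libraries not used at d0 was called for 1451 of 13762 genes (10.5%), 966 above 0 (7.02%) and 485 below 0 (3.52%). With trimmed-mean scaling the balance turned, with 632 above 0 and 763 below. Of the 140 interaction genes at d0, 135 were tested there, 71 had the same sign and 44 were called, 25 in the same and 19 in the opposite direction (25 and 15 with trimmed-mean scaling). *Serpine2* (0.89, adjusted p = 0.000642), *Nqo1* (1.0, adjusted p = 0.00138), *Tslp* (1.75, adjusted p = 0.00274) and *C1qa* (−1.23, adjusted p = 0.00268) kept their direction. *Ccn2* (1.35, adjusted p = 0.00640), *Ccn1* (0.82), *Prss23* (0.74) and *Cebpd* (0.43) had the opposite one. *Il11* was below the filter at d3, and *H19* had an interaction of 0.04 (adjusted p = 0.939).

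The interaction calls lie near the limit of these libraries. Without any single library the number called was 36 to 114 and shared 35 to 90 genes with the 140, and it was 1.5 times or more lower for every library other than vWAT siH19 3. Leaving out vWAT siCtrl 2 and 3 leaves 1 library in that group. Across the 68 named interactions, the fitted direction was the same in all alternatives.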

How the data were processed

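Poly-A libraries of primary SVF cells were sequenced by the authors, and the deposited table holds 1 FPKM value per gene and library; the table does not name its unit, which was read from the values and the processing notes. The submitters' processing notes name FastQC 0.10.1, TopHat2 2.0.10, STAR, Cufflinks 2.2.1, DESeq2 and R 3.2.2, and the build GRCm38.p5, without saying which step made the table. No counts were used, so depth is unknown and no counting interval is given.

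The 12 d0 libraries were fitted together with limma 3.58.1 (R 4.3.3) on log2(FPKM + 1) with an intensity trend, keeping each gene that reached an FPKM of 1 in 3 or more libraries, and p-values were adjusted by Benjamini-Hochberg over all 13708 genes. The script was tested on simulated data. Tables were made with Python 3.11.15 and pandas 2.3.3. Genes described were *H19* and *Igf2*, the 12 largest called interactions in each direction with a gene symbol that is no clone name or short RNA, the 8 shared genes with the largest change in each direction, opposite genes, up to 4 called members of each list in each direction, and genes the study names. The granulocyte genes, *A730020M07Rik*, *Acta2*, *Myod1*, *Hmox1* and *Cat* were named after their values were seen where they fall outside that rule. The members and gene lists were chosen with earlier results of these data known. Alternatives were other filters, pseudocounts, scalings, spreads, fold limits and replicate blocks, and leaving out libraries. Gene models were GENCODE M21 (GRCm38), and promoters were from RefSeq (GRCm38.p6).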

Additional observations from a re-analysis of the deposited data

Results flagged for a closer look

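The effect of siH19 differed between BAT and vWAT cells at d0, by the interaction term of the fit, for 140 genes. The named ones are given here by the interaction on log2(FPKM + 1). Above 0, the ligands and cytokines were *Il11* at 2.1, *Spp1* at 1.07, *Ereg* at 1.03, *Hbegf* at 0.95, *Nppc* at 0.89, *Inhba* at 0.79 and *Tslp* at 0.76. The enzymes and transporters above 0 were *Akr1c18* at 1.34, *Clcn5* at 1.2, *Nqo1* at 1.08, *Gsta4* at 0.78, *Gsta3* at 0.69 and *Pgd* at 0.30. Matrix and protease genes above 0 were *Cthrc1* at 0.88, *Serpinb2* at 0.83, *Serpine2* at 0.68, *Thbs2* at 0.53, *Plaur* at 0.51 and *Spon2* at 0.35. Also above 0 were *Sgca* at 1.07, *Ica1* at 1.06, *Eva1a* at 0.88, *Cd9* at 0.57, *Hmga2* at 0.53, *Spry4* at 0.52, *Cdkn1a* at 0.44 and *Vcam1* at 0.38.

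Below 0, *H19* was at −2.07 and the immune and plasma protein genes were *Xaf1* at −1.89, *C1qa* at −1.06, *Cxcl12* at −1.0, *Kng1* at −0.95, *Ccl9* at −0.87, *Kng2* at −0.83, *Tyrobp* at −0.74, *Lyz2* at −0.64, *Hp* at −0.61, *Serping1* at −0.52 and *Agt* at −0.48. Signalling genes and transcription regulators below 0 were *Id4* at −0.82, *Gas1* at −0.80, *Ccn5* at −0.71, *Smad6* at −0.70, *Adm* at −0.70, *Cebpd* at −0.65, *Sfrp2* at −0.65, *Fzd5* at −0.62, *Igfbp4* at −0.52, *Sfrp1* at −0.51, *Fas* at −0.51, *Ccn2* at −0.47, *Spry1* at −0.45, *Egln1* at −0.40, *Id2* at −0.39, *Ccn1* at −0.37, *Amotl2* at −0.31, *Vegfd* at −0.31 and *Id3* at −0.27. Matrix genes below 0 were *Adamts15* at −0.78, *Htra1* at −0.69, *Fbln1* at −0.47, *Loxl1* at −0.30, *Adamts2* at −0.30, *Efemp1* at −0.28 and *Prss23* at −0.24. The remaining ones were *Prcd* at −1.05, *Ggt5* at −0.94 and *Fam219b* at −0.83.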

How the results depend on the processing

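None of the 68 named interactions changed direction under any alternative, but the interaction calls depended on the processing, and the cause was not tested. Small depot differences could change sign, as that of *C1qa* in vWAT did from 0.03 to −0.11 without vWAT siCtrl 2 and 3. The 140 interactions became 305 when all 24 libraries shared 1 spread, 85 with no filter on low FPKM, 84 with no intensity trend, and 36 to 114 without 1 library. Without vWAT siCtrl 2 and 3 there were 4, and without replicate 2 of both vWAT groups 39; both settings were chosen after seeing the data, and in the former the lone vWAT siCtrl library is assumed to vary like the other groups. Over all genes tested, same-numbered libraries correlated at −0.036 to 0.049 after group means were removed. That measure cannot exclude a pairing that touches only some genes. For interferon-stimulated genes, replicate 2 had the highest list mean in every group, and whether replicate numbers mark shared cultures was not tested. With a replicate block shared by depots 81 interactions and 3 opposite genes were called, and with a block within each depot 32 and 5. With no minimum fold the calls were 743 in BAT (406 in the report), 576 in vWAT (278), 183 the same way (89) and 11 opposite (1). With each depot's own 6 libraries they were 245 in BAT, 53 the same way and 0 opposite. Opposite genes numbered 2 at an FPKM of at least 5, 0 with no filter, 2 with robust empirical Bayes and 3 with trimmed-mean scaling. Without 1 library, BAT calls were 219 to 397, the former without BAT siCtrl 3, with 269 without BAT siH19 1. Those in vWAT were 173 to 287, the former without vWAT siCtrl 2, with 176 without vWAT siH19 2. Genes called the same way were 50 to 98, at 50 without vWAT siH19 2, 53 without vWAT siCtrl 2 and 55 without vWAT siCtrl 1, and opposite genes 0 to 3. Without vWAT siCtrl 2 and 3, 24 genes passed in vWAT, 7 the same way and 0 opposite; without replicate 2 of both vWAT groups, 108, 29 and 2. Trimmed-mean scaling moved the split in vWAT from 74 higher and 204 lower to 120 and 160, and that of the mean of both depots from 59 and 235 to 85 and 194, and that of the d3 interaction from 966 above and 485 below 0 to 632 and 763. Of 68 named interactions, 1 kept its call in every alternative. Without counts, the precision that depth sets cannot be given.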
